A study of Mus musculus with 8 samples.

Results

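The 7 enzymes of the pentose phosphate pathway were examined in cultured mouse cardiac fibroblasts, the cells that lay down collagen in the heart. They were chosen by gene symbol: G6pdx, Pgls and Pgd of the oxidative branch, and Rpia, Rpe, Tkt and Taldo1 of the non-oxidative branch. All 7 were among the 22274 genes of the deposited table, and all 7 passed the filter on low counts that left 13533 genes for testing. Primary cells from heart had been given TGF-β (labelled TGF-b), a cytokine that turns fibroblasts into myofibroblasts, in every library. There were 4 libraries labelled GFP and 4 labelled OEIRF7. In the study's description the first received an empty virus and the second a virus carrying IRF7, an interferon regulatory factor. The methods name adenovirus and list a human IRF7 construct driven by the CMV promoter that also encodes EGFP, whereas the deposited description names an adeno-associated virus. The methods also list an adeno-associated virus carrying mouse Irf7, which the study describes injecting into mice. No label gives the age, sex or strain of the animals, or says that the libraries came from separate cultures. A legend of the study speaks of biological replicates, fewer per group than the libraries deposited, without naming them, and all libraries were used here, so the p-values measure only the spread between these samples.

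The pentose phosphate pathway runs beside glycolysis from glucose 6-phosphate. Its oxidative branch yields NADPH, which drives the synthesis of lipids and keeps glutathione and thioredoxin reduced, and ends in ribulose 5-phosphate. Its non-oxidative branch interconverts sugar phosphates in reversible steps, makes ribose 5-phosphate for nucleotides, and returns carbon to glycolysis as fructose 6-phosphate and glyceraldehyde 3-phosphate.

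Total counts lay between 24454801 and 28658826 per library, and replicates of a group differed by more than sampling noise in every pair. The targeted gene did not follow its label. Mouse Irf7 fell from 118 ± 24.0 CPM (counts scaled to library size with TMM factors, SD, n = 4) in the libraries labelled GFP to 15.2 ± 0.822 CPM in those labelled OEIRF7, a log2 change of -2.96 (SE 0.12, edgeR adjusted p = 7.72e-11). The counts are of the mouse gene, so they do not check the human construct of the listed adenovirus. They could include transcripts of the listed adeno-associated virus, which carries mouse Irf7, only if that virus was used. For these cells the study's own text names adenovirus. The sources differ on the virus used, and each direction below rests on the labels as given. Summed fibroblast markers, Col1a1 the most abundant, were at 13500 to 14200 CPM in the libraries labelled GFP and 11800 to 12400 CPM in those labelled OEIRF7, with 1 of 10 higher and 6 lower. The lists for cardiomyocytes (8.63 to 14.2 CPM in all), endothelial cells (242 to 276, with 5 of 10 higher and 1 lower) and red blood cells (at most 0.284) stood far below that in all 8 libraries, as did epicardial markers, at 152 to 159 CPM against 106 to 120. Mural markers, several of which fibroblasts also express, summed to 1470 to 1580 CPM against 1330 to 1480, with 3 of 8 tested higher and 4 lower. Macrophage markers, led by Lyz2, summed to 286 to 343 CPM and to 360 to 400 CPM, with 5 of 10 higher and none lower. Beside these counts of markers, 29.0% of all tested genes were higher and 29.9% lower, by the edgeR test described below. No marker of any list was at 0 in all libraries, and the part of these cells in the results below was not tested. In bulk RNA, fewer cells of a type and less RNA per cell cannot be told apart.

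The 7 enzymes did not move together. Taldo1 (transaldolase), Pgd (6-phosphogluconate dehydrogenase) and Tkt (transketolase) were higher in the libraries labelled OEIRF7, and G6pdx (glucose-6-phosphate dehydrogenase), Pgls (6-phosphogluconolactonase) and Rpe (ribulose-phosphate epimerase) were lower. Rpia (ribose-5-phosphate isomerase) did not pass the test. These calls came from edgeR's quasi-likelihood test with a Benjamini-Hochberg adjusted p under 0.05. Among all tested genes 29.0% were called higher and 29.9% lower, 58.9% in all, so 6 of 7 enzymes called stands against a background in which most genes were called. In 6 of the 7 the groups did not overlap, against 53.8% of all tested genes. The median log2 change was 0.15 over the 7 enzymes and 0.0015 over all tested genes, and the median size of the change was 0.31 against 0.25. Both branches held rises and falls: the oxidative branch had 1 enzyme higher and 2 lower, the non-oxidative branch 2 higher and 1 lower.

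**Figure D1:**
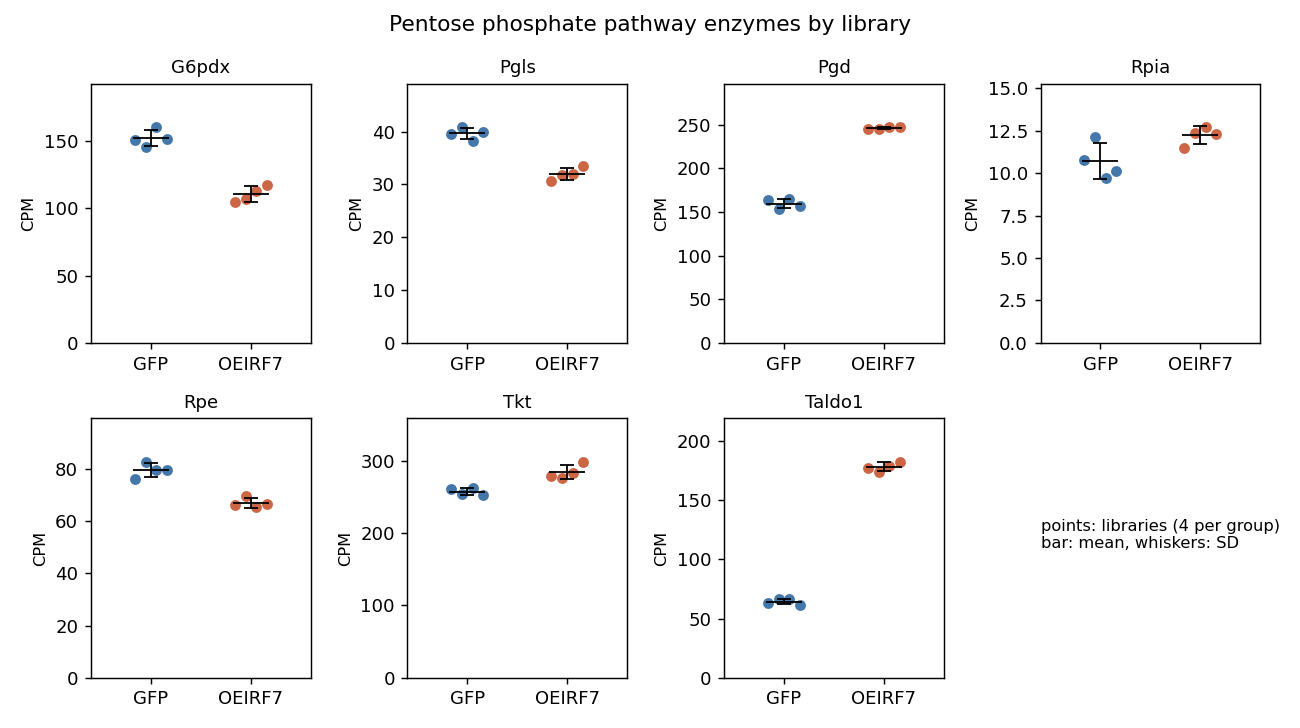
CPM (vertical axes, from 0) of the 7 enzymes in each library; points are libraries, bars the mean and whiskers the SD of 4. Taldo1 and Pgd sit higher in every library labelled OEIRF7, G6pdx lower, and the groups of Rpia overlap.

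Because Taldo1 and Pgd had the largest rises of the 7, the stretches upstream of their RefSeq start sites are shown, read from RefSeq GRCm38.p6 in the direction of transcription. All 7 enzymes had an entry among the RefSeq promoters, and Pgd had a second, at a start inside the gene, which makes 8 windows. Capitals mark matches, on either strand, to the GC box, which reads GGGCGG, and to the CCAAT box, which appears in the Taldo1 stretch as its complement. The Taldo1 stretch is chr7:141391910-141392159 on the plus strand, the 250 bases before the start. The Pgd stretch is chr4:149166772-149166955 on the minus strand, which runs from 250 to 67 bases before the start, since the bases nearer to it are exonic in GENCODE M21.
Taldo1: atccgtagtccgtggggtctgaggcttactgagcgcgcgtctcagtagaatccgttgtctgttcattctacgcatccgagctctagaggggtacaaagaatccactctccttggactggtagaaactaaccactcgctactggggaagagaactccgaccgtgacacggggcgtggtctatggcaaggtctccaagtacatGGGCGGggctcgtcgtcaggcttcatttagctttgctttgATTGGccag
Pgd: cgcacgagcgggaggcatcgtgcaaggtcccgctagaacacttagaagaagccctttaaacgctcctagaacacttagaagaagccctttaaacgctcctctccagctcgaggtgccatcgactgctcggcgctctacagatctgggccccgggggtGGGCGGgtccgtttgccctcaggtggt
The GC box began 49 bases and the CCAAT box 9 bases before the Taldo1 start, and the Pgd GC box 93 bases before its start. The Pgd window held 2 more CCAAT boxes, 46 and 9 bases before the start, in the exonic bases not shown. A GC box was found in 7 of the 8 windows of 250 bases upstream of the start, all but the second of Pgd, and in 32.7% of the 32851 RefSeq promoter windows of that length. A CCAAT box was found in 2 of the 8, those of Taldo1 and the first of Pgd, and in 33.8% of all windows. The core of the antioxidant response element, TGACNNNGC, which binds NRF2, was found in 1 of the 8, that of G6pdx, as GCTCAGTCA on the other strand, 57 bases before the start, and in 10.2% of all windows. All 250 bases before this RefSeq start of G6pdx are exonic in GENCODE M21. None of the 8 windows held the E-box CACGTG (6.02% of all windows) or the interferon-stimulated response element (0.685%), which interferon regulatory factors bind. The search covered these letters in these windows only. The shares are over all RefSeq windows, and no share over the tested genes alone is given.

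G6pdx catalyses the committed step of the oxidative branch, in which glucose 6-phosphate gives up the first NADPH. The gene (ENSMUSG00000031400) lies on the minus strand at chrX:74409483-74429194 in GRCm38. It drew 4038, 3636, 3960 and 3969 counts in the libraries labelled GFP and 2701, 3099, 2868 and 2897 in those labelled OEIRF7, or 151, 146, 160 and 151 CPM against 105, 107, 113 and 117 CPM. Every library labelled OEIRF7 was lower than every library labelled GFP. The means were 152 ± 6.14 and 110 ± 5.78 CPM (SD, n = 4), a log2 change of -0.46 (SE 0.043, 95% interval -0.55 to -0.37), with an edgeR adjusted p of 3.38e-07. By exact permutation of the 8 libraries (two-sided, on log2 CPM), p was 0.029, the smallest that 4 against 4 allows, for G6pdx and for each of the 5 other enzymes called. G6pdx shares 418 of its 3080 annotated exon bases with Ikbkg on the opposite strand, and the strand setting of the counting is not given in the sources used here, so reads there are of uncertain origin. Ikbkg itself changed by -0.24 on the log2 scale (edgeR adjusted p = 0.000411).

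Pgls opens the lactone that G6pdx produces. It is encoded on the plus strand at chr8:71592176-71601092 (ENSMUSG00000031807). Its counts were 1060, 1021, 945 and 1047 under GFP and 790, 923, 815 and 824 under OEIRF7. On the CPM scale the libraries lay between 38.3 and 40.9 under GFP and between 30.6 and 33.4 under OEIRF7, without overlap. The log2 change was -0.31 (SE 0.046, edgeR adjusted p = 3.55e-05). Pgls shares 776 of 3770 exon bases with Fam129c on the same strand, but Fam129c was low, at 0.771 and 0.476 CPM, and was not called (edgeR adjusted p = 0.0679).

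Pgd makes the second NADPH of the branch and releases its carbon dioxide. It lies on the minus strand at chr4:149149991-149166771 (ENSMUSG00000028961). Counts rose from 4377, 3824, 4085 and 4117 to 6320, 7115, 6296 and 6108. In CPM the libraries labelled GFP were at 163, 153, 165 and 157, and those labelled OEIRF7 at 245, 245, 247 and 248. The OEIRF7 values were close to each other, with an SD of 1.36 CPM. Pgd was 1.54-fold higher, a log2 change of 0.62 (SE 0.033, 95% interval 0.55 to 0.70, edgeR adjusted p = 9.4e-10). Thus G6pdx, at the head of the oxidative branch, and Pgd, at its end, changed in opposite directions.

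The contrast held within each library, where no scaling enters. The ratio of Pgd counts to G6pdx counts was 1.08, 1.05, 1.03 and 1.04 in the libraries labelled GFP and 2.34, 2.30, 2.19 and 2.11 in those labelled OEIRF7. The means were 1.05 ± 0.0235 and 2.23 ± 0.104, a difference of 1.09 in log2 of the ratio. This ratio and the 2 others below, of Taldo1 to Tkt and of Rpia to Rpe, were chosen after the values were seen and are given without a test. They are ratios of counts, which are not corrected for gene length, so their level carries no meaning and only their change between groups does.

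In the non-oxidative branch, Taldo1 had the largest change of the 7. Transaldolase moves a dihydroxyacetone unit from sedoheptulose 7-phosphate to glyceraldehyde 3-phosphate. The gene (ENSMUSG00000025503) lies on the plus strand at chr7:141392199-141402968. Counts were 1692, 1666, 1637 and 1614 in the libraries labelled GFP and 4572, 5043, 4569 and 4509 in those labelled OEIRF7. In CPM these were 63.1, 66.7, 66.3 and 61.6 against 177, 174, 179 and 183. The lowest OEIRF7 library was far above the highest GFP library. Taldo1 was 2.77-fold higher, a log2 change of 1.47 (SE 0.037, 95% interval 1.39 to 1.55, edgeR adjusted p = 1.16e-12), and 345 of the 13533 tested genes had a larger rise.

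Tkt, which moves a ketol unit and uses thiamine as cofactor, works with Taldo1 on the same sugars. It is on the plus strand at chr14:30548359-30574720 (ENSMUSG00000021957). Its counts were 6971, 6339, 6457 and 6605 under GFP and 7207, 7997, 7220 and 7365 under OEIRF7, or 252 to 262 CPM against 276 to 299 CPM. The groups did not overlap, but the change was small, 1.11-fold or 0.15 on the log2 scale (SE 0.034, 95% interval 0.07 to 0.22, edgeR adjusted p = 0.00169). The ratio of Taldo1 counts to Tkt counts was 0.243 to 0.263 in the libraries labelled GFP and 0.612 to 0.634 in those labelled OEIRF7, a difference of 1.32 in log2 of the ratio.

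Rpe and Rpia both draw on ribulose 5-phosphate, which Rpe converts to xylulose 5-phosphate and Rpia to ribose 5-phosphate. Rpe (ENSMUSG00000026005, plus strand, chr1:66700831-66719805) had counts of 2040, 2068, 1964 and 2087 under GFP and 1711, 2017, 1666 and 1642 under OEIRF7. Scaled to depth, it was at 76.1 to 82.8 CPM against 65.4 to 69.5 CPM, without overlap. Its log2 change was -0.25 (SE 0.038, edgeR adjusted p = 6e-05). On the authors' FPKM scale, tested by limma on log2(FPKM + 1), the change of Rpe was smaller, at -0.16 (adjusted p = 0.0102). Rpe shares 558 of 3113 exon bases with Kansl1l on the opposite strand, which changed by -0.22 (edgeR adjusted p = 0.0462).

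Rpia (ENSMUSG00000053604, minus strand, chr6:70765720-70792232) was the least abundant of the 7. Its counts were 288, 303, 240 and 266 under GFP and 296, 358, 324 and 304 under OEIRF7, or 10.7, 12.1, 9.72 and 10.1 CPM against 11.5, 12.3, 12.7 and 12.3 CPM. The second GFP library lay among the OEIRF7 libraries. The log2 change was 0.19 (SE 0.081, 95% interval 0.02 to 0.37), with an edgeR adjusted p of 0.0534 and an exact permutation p of 0.057. The call turned on the setting, as 7 of 17 alternatives put it past the threshold, with adjusted p from 0.012 to 0.143. Without the second GFP library the change was 0.26 (adjusted p = 0.012), and without the first OEIRF7 library it was 0.22 (adjusted p = 0.0471). The direction was positive in all 17.

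**Figure D2:**
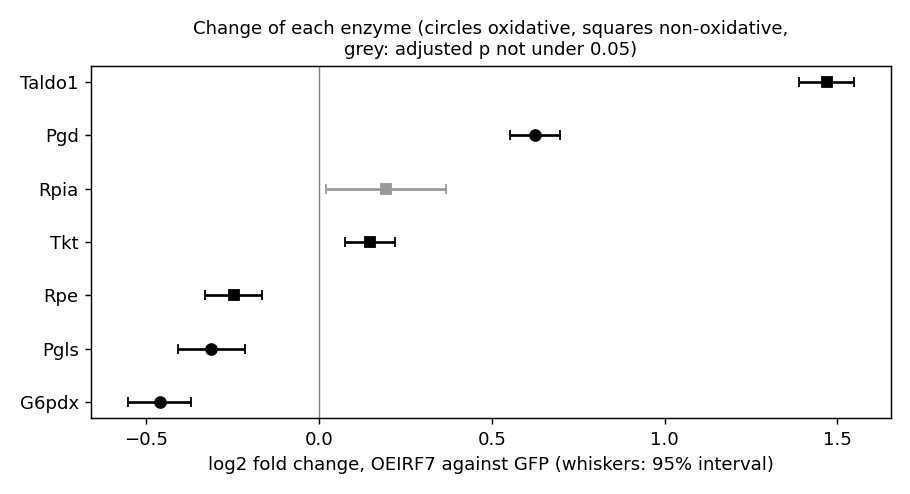
Log2 fold change of each enzyme between libraries labelled OEIRF7 and GFP (horizontal axis), with 95% intervals derived from the edgeR test, 4 libraries a group. Circles are oxidative, squares non-oxidative enzymes, and grey marks an adjusted p not under 0.05. Taldo1 is at 1.47 and Pgd at 0.62, G6pdx at -0.46, and Rpia is the grey point at 0.19.

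Levels of different genes were compared on the FPKM scale, which corrects for gene length. In the libraries labelled GFP the order was Tkt (86.2 FPKM), Pgd (71.3), G6pdx (57.9), Taldo1 (51.9), Pgls (43.9), Rpe (29.9) and Rpia (5.79). In those labelled OEIRF7 it was Taldo1 (146 FPKM), Pgd (112), Tkt (97.8), G6pdx (42.6), Pgls (36.0), Rpe (26.6) and Rpia (6.74). The ranges over 4 libraries of neighbours in these orders did not overlap in either group. Taldo1 thus went from the fourth place to the first, and the order of the other 6 changed only in that Pgd passed Tkt.

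**Figure D3:**
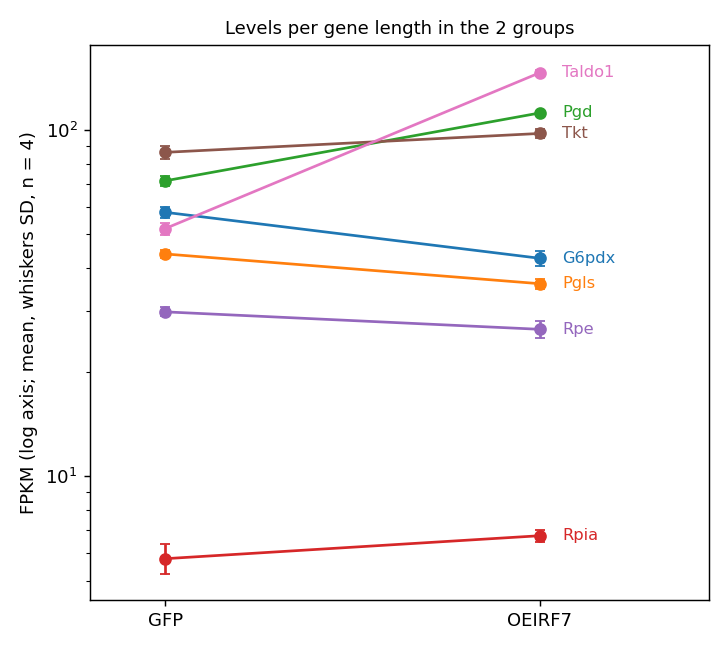
Mean FPKM of the 7 enzymes in the libraries labelled GFP and OEIRF7 on a log axis, with whiskers for the SD of 4 libraries; lines join the same gene. The line of Taldo1 crosses those of G6pdx, Pgd and Tkt, from 51.9 to 146 FPKM.

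Summed over its enzymes, the oxidative branch stood at 173 ± 3.24 FPKM under GFP and 191 ± 3.50 FPKM under OEIRF7 (SD, n = 4), and the non-oxidative branch at 174 ± 5.98 and 277 ± 5.49 FPKM. Without Taldo1 the non-oxidative sum was 122 ± 3.93 and 131 ± 2.94 FPKM. Without Pgd the oxidative sum turned direction, with 102 ± 0.875 FPKM under GFP and 78.6 ± 3.28 FPKM under OEIRF7. Taldo1 made up 15.0% of the FPKM summed over all 7 under GFP and 31.3% under OEIRF7. The share of G6pdx was 16.7% and 9.10%, that of Pgls 12.7% and 7.69%, that of Rpe 8.61% and 5.68%, and that of Rpia 1.67% and 1.44%. Pgd had 20.6% and 23.9%. Tkt, although called higher by itself, had 24.9% of the sum under GFP and 20.9% under OEIRF7. Shares of a sum are not independent of each other and were not tested.

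**Figure D4:**
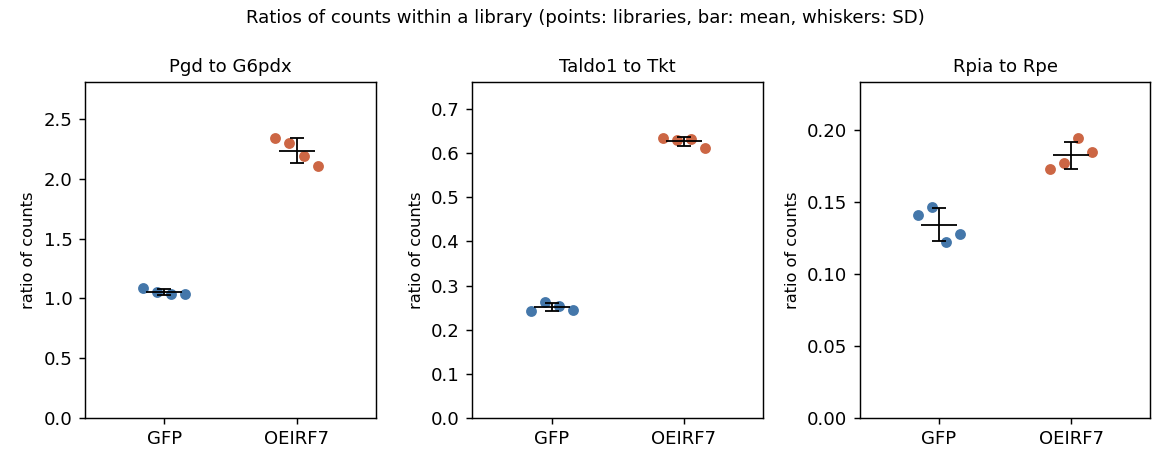
Ratios of raw counts within each library (vertical axes, from 0) for Pgd to G6pdx, Taldo1 to Tkt and Rpia to Rpe; points are libraries, bars the mean and whiskers the SD of 4. The first ratio is 1.03 to 1.08 under GFP and 2.11 to 2.34 under OEIRF7, and the third 0.122 to 0.147 and 0.173 to 0.194.

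The genes whose course over the 8 libraries was most like that of Taldo1 were sought by the root mean square difference of mean-centred log2 CPM. The search covered the 10320 genes with a mean of at least 5 CPM, leaving out the 7 enzymes. The closest were Junb, a subunit of AP-1 (0.0597), Ackr3, a scavenging receptor for chemokines (0.0697), B4galt5, a galactosyltransferase (0.0818), Hmga1, a chromatin protein (0.082), and Ugdh (0.0861), which makes UDP-glucuronate for glycosaminoglycans. Their log2 changes lay between 1.41 and 1.59. On the genome, Taldo1 and Irf7 are both on chromosome 7 with 126 kb between them, which was looked at after the values were seen. Of the 3 tested genes in that interval, Eps8l2 was higher (0.46, edgeR adjusted p = 0.00176), Tmem80 lower (-0.52, adjusted p = 0.00583), and Deaf1 was at -0.14 (adjusted p = 0.107).

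Genes linked to the pathway were taken from 7 lists of 89 genes, of which 82 were tested. In all, 36 (43.9%) were higher, 18 (22.0%) lower and 28 were not called, with a median log2 change of 0.10. The share called, 65.9%, compares with 58.9% of all tested genes, of which 29.0% were higher and 29.9% lower.

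Of 10 paralogs and side enzymes, 7 were tested, 3 were higher and 1 lower (57.1% called, against 58.9% of all tested genes), with a median log2 change of 0.10. H6pd, which carries out the oxidative steps in the endoplasmic reticulum, was higher by 0.27 on the log2 scale (151 ± 5.07 and 182 ± 2.85 CPM, edgeR adjusted p = 7.49e-06), in contrast to cytosolic G6pdx. Pgm2, a phosphopentomutase that converts ribose 1-phosphate, was higher by 0.43 (adjusted p = 1.26e-06). Tigar, a phosphatase that lowers fructose 2,6-bisphosphate, was higher by 0.24 (adjusted p = 0.012), and Shpk, which makes sedoheptulose 7-phosphate, was at -0.33 (adjusted p = 0.0181), a fall. Rbks (ribokinase), Dera (deoxyribose-phosphate aldolase) and Idnk (gluconokinase) did not pass, at -0.51, 0.10 and 0.06. G6pd2 had no count in any library, and Tktl1 and Tktl2 reached at most 11 and 1 counts in a library. Among the enzymes that turn ribose 5-phosphate into PRPP, the activated ribose of nucleotide synthesis, 4 of 5 were tested. Of these 4, 2 were higher and 1 lower (75.0% called, against 58.9% of all tested genes). Prps2, a catalytic subunit, was lower at -0.49 on the log2 scale (65.6 ± 3.87 and 46.8 ± 1.40 CPM, edgeR adjusted p = 4.24e-07). Prps1 was at -0.09 (adjusted p = 0.25). The associated proteins Prpsap1 and Prpsap2 were higher by 0.37 (adjusted p = 5.71e-06) and 0.38 (adjusted p = 0.00321).

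Of the 15 genes around the entry of glucose 6-phosphate, 14 were tested, with 7 higher and 1 lower (57.1% called, against 58.9% of all tested genes) and a median log2 change of 0.37. Hk2 had the largest rise of the list (79.2 ± 8.36 and 158 ± 6.43 CPM, log2 change 0.998, edgeR adjusted p = 4.16e-09). Hk1, another hexokinase, was at 241 ± 14.1 and 416 ± 42.8 CPM (log2 change 0.79, adjusted p = 5.43e-08). The fall was G6pc3, a glucose-6-phosphatase (-0.45, adjusted p = 1.2e-05). Hk1 and Hk2 were thus higher in the same libraries in which G6pdx was lower.

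Of 14 genes listed with other sources of NADPH, not all of which make NADPH themselves, 13 were tested. Of these, 2 were higher and 5 lower (53.8% called, against 58.9% of all tested genes), with a median log2 change of -0.017. The 2 rises, named after their values were seen, were Me2 (0.34) and Mthfd1l (0.45). Both changes past a log2 size of 1 were falls in mitochondrial enzymes, Me3 (malic enzyme; 4.09 ± 0.564 and 1.66 ± 0.302 CPM, log2 change -1.30, edgeR adjusted p = 1.31e-05) and Idh2 (isocitrate dehydrogenase; 13.7 ± 0.881 and 6.78 ± 0.451 CPM, -1.01, adjusted p = 7.38e-08). Nnt was left out because 2 overlapping entries of the annotation split its reads. Of 15 users of NADPH, 7 were higher and 3 lower (66.7% called, against 58.9% of all tested genes). Blvrb, biliverdin reductase B, passed a log2 size of 1, from 10.7 ± 1.39 to 25.3 ± 1.85 CPM (log2 change 1.24, adjusted p = 1.9e-08). Of 20 genes of purine and pyrimidine synthesis, 10 were higher and 4 lower (14 of 20 called, against 58.9% of all tested genes). The largest rise there was Adssl1, of the step to AMP (0.99, adjusted p = 8.72e-05), at a low level of 2.14 CPM under GFP and 4.24 CPM under OEIRF7. Adss, listed with it, was far more abundant, at 70.5 and 82.8 CPM, and higher by only 0.23 (adjusted p = 6.7e-05). The largest fall was Tyms, thymidylate synthase (-0.63, adjusted p = 1.59e-06). The other 3 falls, named after their values were seen, were Rrm1 (-0.46), Rrm2 (-0.37) and Rrm2b (-0.16), the subunits of ribonucleotide reductase.

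Among 10 transcription factors and partners known to regulate these enzymes, 9 were tested, 5 were higher and 3 lower (8 of 9 called, against 58.9% of all tested genes), with a median log2 change of 0.26. Myc had the largest rise (24.7 ± 1.36 and 43.6 ± 4.17 CPM, log2 change 0.82, edgeR adjusted p = 8.94e-08) and Mlxip the largest fall (-0.21, adjusted p = 0.000692). Nfe2l2, which encodes NRF2, and its inhibitor Keap1 were also looked at after their values were seen, at 0.64 (adjusted p = 8.56e-09) and -0.19 (adjusted p = 0.0018). The rest of the tested list was Hif1a (0.49), Trp53 (0.39), Bach1 (0.26), Srebf1 (-0.16) and Srebf2 (0.001, not called). The part of any of these regulators in the changes of the enzymes was not tested.

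**Figure D5:**
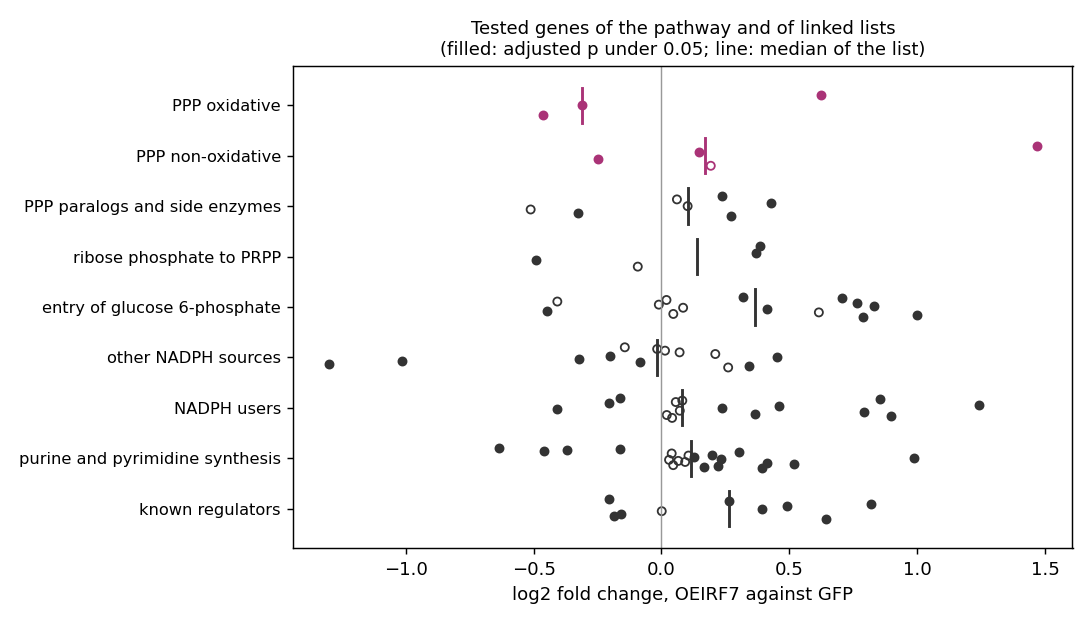
Log2 fold change between libraries labelled OEIRF7 and GFP (horizontal axis) for each tested gene of both branches and of the 7 linked lists; filled points have an edgeR adjusted p under 0.05 and the upright line is the median of a list. The oxidative branch spans -0.46 to 0.62, the non-oxidative branch -0.25 to 1.47, and the median of the genes around glucose 6-phosphate is 0.37.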

How the data were processed

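RNA-seq libraries were analysed as deposited: raw counts per gene and FPKM. According to the study's methods, the authors trimmed reads with Trimmomatic, mapped them with HISAT2 to GRCm38, obtained the deposited counts with HTSeq-count and the deposited FPKM, scaled for gene length and depth, with Cufflinks. Tool versions and the strand setting are not given in the sources used here, and the labels and the methods name different extraction and library kits. The table also holds the authors' group means, fold changes and p-values, which were not used. In 121 symbols the letters NC read GFP and were restored by Ensembl identifier. Coordinates came from GENCODE M21, in which 22219 identifiers were found.

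Counts were tested in R 4.3.3 with edgeR 4.0.16 (filterByExpr, TMM, glmQLFit and glmQLFTest without covariates, Benjamini-Hochberg over 13533 genes), and a call is an adjusted p under 0.05. CPM used TMM-scaled library sizes, and log2 CPM a prior count of 2. TMM factors were 0.989 to 1.01. Tests were tried on simulated data in which few genes changed. That trial cannot speak to data such as these, in which most genes were called. Alternatives were DESeq2 1.42.0, other scalings and filters, limma 3.58.1 on log2(FPKM + 1) and log2(FPKM + 0.1), the replicate number as a block, and each library left out. Standard errors were derived from the log2 change and the F statistic of the edgeR test, and intervals from these standard errors. Intervals reflect these libraries only. The enzymes and lists were chosen with earlier results of these data known. Named from a linked list are called genes with a log2 change of at least 1 in size, otherwise its largest rise and fall, and all tested side enzymes and PRPP genes. Overlap of exons was counted in bases.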

Additional observations from a re-analysis of the deposited data

Results flagged for a closer look

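Prpsap1, which encodes a protein associated with PRPP synthetase, had a library apart from the rest of its group: the third library labelled GFP was at 50.2 CPM and the other 3 at 45.4 to 46.2 CPM, all below the libraries labelled OEIRF7. The gap took up 0.837 of the range of the group. Of 40 pairs of gene and group examined this was the only pair past the limit of Dixon's test, and chance alone marks about 1 in 20.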

How the results depend on the processing

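Of the 7 enzymes, 6 kept their direction and their call under all 17 alternatives, and only Rpia changed its call. The log2 change ranged from 1.44 to 1.496 for Taldo1, 0.60 to 0.65 for Pgd, 0.12 to 0.18 for Tkt, -0.27 to -0.16 for Rpe, -0.33 to -0.28 for Pgls and -0.49 to -0.43 for G6pdx. The counts of enzymes called stayed at 3 higher and 3 lower unless Rpia was added. With the replicate number as a block, 4057 genes were higher and 4154 lower, against 3924 and 4045 without it, the enzymes stayed at 3 and 3, and the linked lists at 39 and 18. Samples of the same number had correlated deviations of 0.079 to 0.138, and those of different numbers -0.158 to 0.048. As not all of the former were over 0.1, an arbitrary limit, samples were taken to share only a number. The exact permutation p-values likewise hold only for unpaired libraries. Each library did correlate best with its own number, a hint from the data and not from the design. Genes below about 1 CPM, such as Fam129c, rest on few counts.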
